A study of Mus musculus with 12 samples.

Results

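The 39 Hox genes of the mouse were followed in RNA-seq libraries of primary skin fibroblasts that did or did not carry Nox4 and were or were not stimulated with TGF-β2. They were taken by symbol, as every gene of the count table named Hoxa, Hoxb, Hoxc or Hoxd followed by a paralogue number, which gave 39 of the 21556 genes counted. Of these, 28 reached a mean of 1 RPKM (read counts scaled by exon length and by the library's total) in at least 1 group. In WT fibroblasts, TGF-β2 raised Hoxa4 and Hoxb2 and lowered Hoxc6, Hoxc8, Hoxc10, Hoxc12, Hoxd4 and Hoxd8. These 8 were 33.3% of the 24 Hox genes tested, against 22.6% of all genes tested. In Nox4 KO fibroblasts, Hoxb2 rose and Hoxc10, Hoxc12, Hoxd4 and Hoxd8 fell. These 5 were 17.9% of the 28 Hox genes tested, against 30% of all genes tested. With the replicate number as a block in the fit, 15 of 28 Hox genes passed in KO, 3 higher and 12 lower. That share, 53.6%, was near the 54% of all genes that passed in the same fit. No Hox gene passed the test between the genotypes. Nor did any other gene in edgeR: 0% of 10767 genes in control and 0% of 10439 after TGF-β2.

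Hox genes encode transcription factors that bind DNA through a homeodomain and give cells of the embryo their position along the head-to-tail axis and the limb. They lie in clusters in which the order of the genes on the chromosome follows the order in which they are used along the body, so that genes of low paralogue number (anterior) are used toward the head and genes of high number (posterior) toward the tail and the tips of the limbs. Genes with the same paralogue number in different clusters are paralogues. Adult skin fibroblasts are known to keep a Hox pattern that depends on the body site they came from, and Polycomb-group and Trithorax-group proteins are known for keeping Hox genes silent or active through cell division.

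WT fibroblasts came from C57BL/6 mice and KO fibroblasts from B6.129-Nox4tm1Kkr/J mice, which lack part of Nox4, the gene of an NADPH oxidase that makes hydrogen peroxide. The methods of the study place the cells in abdominal skin and describe WT and KO animals as separate litters bred from littermates of each genotype, so that genotype and litter cannot be told apart. Age and sex of the donors of these cultures were not given in the sources used here. All cultures were kept in serum-containing medium and then starved of serum; the TGF-β2 groups received 10 ng/ml for 24 h and the control groups none. Each of the 4 groups (WT control, WT TGF-β2, KO control, KO TGF-β2) held 3 libraries, labelled replicates 1 to 3, and nothing states whether these were separate animals, so that p-values measure the spread between these libraries, which may be technical.

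The libraries held 35118344 to 43796260 counts, of which the Hox genes made up 0.0370% to 0.0695%. The fibroblast label was checked against markers. The summed level of 10 fibroblast markers was 5475 to 8049 RPKM. All 6 keratinocyte markers and all 4 melanocyte and Schwann cell markers were under 1 RPKM in every library. The 5 blood and myeloid markers (Ptprc, Cd68, Adgre1, Csf1r and Lyz2) summed to 11.6 to 106 RPKM, and to 22.6 to 106 in WT control. Of these 5, Ptprc, the pan-leukocyte antigen, alone stayed under 1 RPKM in every library, so that RNA of myeloid markers was present. Endothelial markers summed to 1.67 to 5.38 RPKM, adipocyte markers to 0.173 to 5.58 and skeletal muscle markers to 0.940 to 7.99. Of these markers of other cells, only 4 blood and myeloid markers and 1 each of endothelium, adipocytes and muscle were high enough to test with TGF-β2. Among them only Fabp4, a fatty acid carrier of adipocytes, was called (lower in WT, log2 fold change −2.08). In KO it was at −2.28 and was not called. Col3a1, a fibrillar collagen, and Pdgfra, a growth factor receptor of fibroblasts, fell with TGF-β2 in both genotypes (Pdgfra with log2 fold changes of −3.35 and −2.98, adjusted p = 0.000597 and 0.00128, edgeR), so that marker genes of the cell type itself moved with the stimulus. Whether that bears on the Hox genes was not tested, and in bulk RNA fewer cells of a kind and less RNA per cell cannot be told apart. Nox4 was read at 1.31 to 2.42 RPKM in WT control, 8.56 to 16.3 in WT TGF-β2, 0.636 to 1.40 in KO control and 4.39 to 6.85 in KO TGF-β2. Counts per gene cannot place these reads inside or outside the deleted part, and WT and KO control overlapped, so that they do not check the genotype.

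The Hoxa cluster lies at chr6:52155590-52260880 (GRCm38, minus strand), Hoxb at chr11:96194316-96368256 (plus), Hoxc at chr15:102921103-103036852 (plus) and Hoxd at chr2:74668310-74765142 (plus), with 11, 10, 9 and 9 genes. Paralogues resemble each other most in the homeobox, the 180 bases that encode the homeodomain. The homeoboxes of paralogue group 8 are shown because Hoxc8, the Hox gene with the highest level in WT control, and Hoxd8 both fell while Hoxb8 did not pass the test. They are given from 5′ to 3′ on the coding strand, and capitals mark the bases that differ from Hoxc8.
Hoxb8: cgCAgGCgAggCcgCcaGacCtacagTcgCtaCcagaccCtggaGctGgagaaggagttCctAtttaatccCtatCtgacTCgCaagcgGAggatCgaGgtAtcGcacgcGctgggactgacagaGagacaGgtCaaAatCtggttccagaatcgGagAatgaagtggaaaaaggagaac
Hoxc8: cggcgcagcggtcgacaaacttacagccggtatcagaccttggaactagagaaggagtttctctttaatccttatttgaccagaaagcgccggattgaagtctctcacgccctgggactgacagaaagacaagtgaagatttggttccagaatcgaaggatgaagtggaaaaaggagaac
Hoxd8: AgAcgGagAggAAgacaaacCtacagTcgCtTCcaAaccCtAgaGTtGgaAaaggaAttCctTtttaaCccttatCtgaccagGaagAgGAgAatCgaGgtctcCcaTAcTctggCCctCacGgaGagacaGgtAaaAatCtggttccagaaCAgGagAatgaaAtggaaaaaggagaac
Their positions are chr11:96284174-96284353 (Hoxb8), chr15:102992571-102992750 (Hoxc8) and chr2:74706525-74706704 (Hoxd8), all on the plus strand and in exon 2 of 2. Hoxb8 and Hoxd8 differed from Hoxc8 at 36 and 48 bases. Over all 39 homeoboxes, the 42 pairs of the same paralogue number were 67.2% to 93.9% identical (median 80.6%) and the other 699 pairs 46.1% to 88.9% (median 60.6%).

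The reads were 50 bases long, and 5 of the 39 genes held any run of 50 bases that also occurs in a protein-coding transcript of another Hox gene. The largest share of such runs in a gene was 0.364%, so that paralogues were told apart by nearly all of their sequence. No Hox gene shared exon bases with another gene of the table. Genes outside the table overlapped some exons on the opposite strand: 58.5% of the exon bases of Hoxb2, 57.8% of Hoxb3, 35.0% of Hoxa11, 25.8% of Hoxa3, 20.7% of Hoxa7 and 16.0% of Hoxa4 were the largest shares. Whether the counting used strand was not given in the sources used here, so that reads of these genes and of their antisense partners may not be told apart. Gm28230, a gene outside the table on the same strand, overlapped Hoxd3 and Hoxd4 by 2225 and 1154 exon bases, and Gm28308 likewise overlapped Hoxa2 and Hoxa3 by 267 and 261.

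In unstimulated WT fibroblasts the Hoxc cluster had the highest level, with a summed 131 to 153 RPKM, or 57.1% to 61.1% of all Hox RPKM in a library. Hoxb followed with 75.6 to 76.9 RPKM, Hoxa with 14.2 to 19.0 and Hoxd with 4.35 to 7.70. The ranges of the clusters did not overlap. The leading gene of each cluster was Hoxc8, Hoxb9, Hoxa10 and Hoxd8, so that in every cluster the highest level lay at paralogue number 8, 9 or 10, central to posterior in the code.

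**Figure D1:**
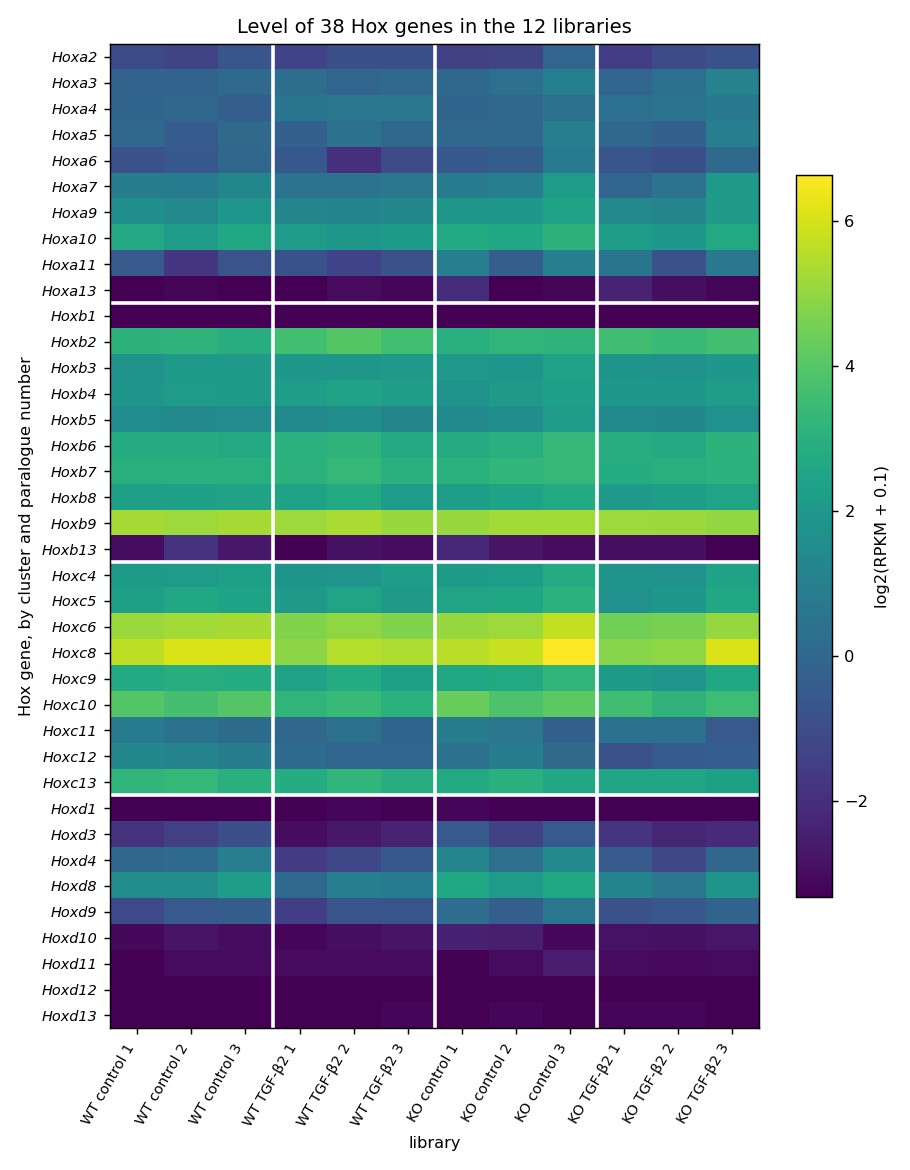
Heat map of 38 Hox genes (rows, by cluster and paralogue number) in the 12 libraries (columns), coloured by log2(RPKM + 0.1), with white lines between clusters and groups. The brightest rows are Hoxc8, Hoxc6 and Hoxb9, and the ends of the Hoxd cluster are dark in every library.

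Hoxc8, a central Hox gene, was read at 51.7, 66.6 and 69.7 RPKM in the WT control libraries. Hoxb9, at the start of the posterior genes, was read at 39.4, 36.0 and 38.8 RPKM and Hoxc6, a central gene, at 34.9, 38.4 and 40.0 RPKM. With the exon lengths of coding transcripts, Hoxc8 lay above both in every WT control library. The ranges of Hoxb9 and Hoxc6 overlapped with these lengths, so that no order between them can be given. Next came Hoxc10 at 14.6 ± 1.47 RPKM (SD, n = 3), Hoxc13, a regulator of hair and nail keratin genes, at 8.89 ± 1.01, and Hoxb2, a hindbrain-class anterior gene, at 8.24 ± 0.811, the ranges of these last 2 overlapping. Hoxa10 was read at 6.32, 4.33 and 6.18 RPKM and Hoxd8 at 2.88, 2.91 and 4.73 RPKM. The level of Hoxc8 depended on the gene length used, since the exons of all transcripts in place of those of coding transcripts gave a mean of 41.3 in place of 62.7 RPKM. That length was 2832 in place of 1868 bases for Hoxc8 and 2408 in place of 1581 for Hoxc6, but 2574 both ways for Hoxb9. The order of these 3 genes in a library therefore depends on the length used.

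In the highest class, 5 genes (Hoxb2, Hoxb9, Hoxc6, Hoxc8 and Hoxc10) reached a mean of 10 RPKM in at least 1 group. Between 1 and 10 RPKM lay 23 genes, among them all others of Hoxb from Hoxb3 to Hoxb8 and all others of Hoxc. In Hoxa2, Hoxa6 and Hoxd3 the highest group mean lay between 0.1 and 1 RPKM. Hoxa13, Hoxb13, Hoxd1, Hoxd10, Hoxd11 and Hoxd13 stayed under 0.1 RPKM in every group. Hoxb1 and Hoxd12 had no read in any library, where 3 counts would have been 0.0328 to 0.0410 RPKM for Hoxb1 and 0.0270 to 0.0337 for Hoxd12, limits that cover counting error only.

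By cluster, Hoxc was read along its whole length, from Hoxc4 at 4.49 ± 0.322 to Hoxc13, with the lowest mean at Hoxc11 (1.30 ± 0.336 RPKM, SD, n = 3, WT control). Hoxb was read from Hoxb2 to Hoxb9 and was near 0 at both ends, with 0 reads of Hoxb1 and at most 15 of Hoxb13 in a library. In Hoxa the means rose from Hoxa9 (3.03 ± 0.583 RPKM) to Hoxa10 and then fell to Hoxa11 (0.423 ± 0.203) and Hoxa13 (0.00354 ± 0.00613). In Hoxd the signal was held in Hoxd4, Hoxd8 and Hoxd9, at 1.25 ± 0.485, 3.51 ± 1.06 and 0.541 ± 0.162 RPKM, while Hoxd10 to Hoxd13, the genes of the limb tips and genital bud, had at most 6 reads in a library.

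Hoxa13, used at the distal limb and hind end, had 14 reads in KO control replicate 1 and 10 in KO TGF-β2 replicate 1, and at most 3 in each of the other libraries. It was too low to test.

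**Figure D2:**
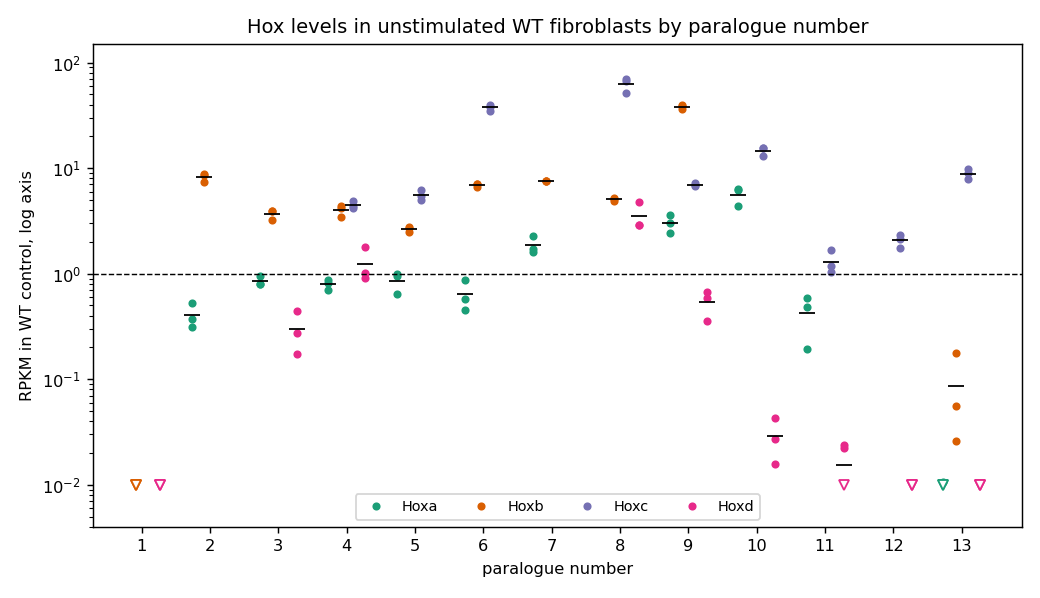
Level of these 38 Hox genes in the 3 WT control libraries (points, RPKM on a log axis; black bars are means) against paralogue number, coloured by cluster, with the dashed line at 1 RPKM; open triangles at the foot are libraries under 0.01 RPKM. The highest points are Hoxc8 at paralogue 8, Hoxc6 at 6 and Hoxb9 at 9, and paralogue 13 runs from Hoxc13 near 9 RPKM to Hoxa13 and Hoxd13 at the foot.

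Libraries of 1 group did not vary alike. KO replicate 3 lay above its group mean for 25 of the 28 genes over 1 RPKM in KO control and again for 25 of 28 in KO TGF-β2, with median deviations of 0.27 and 0.37 on the log2 scale. The 3 KO control libraries held 228.6, 239.1 and 330.2 RPKM of Hox RNA in all and the 3 KO TGF-β2 libraries 176.2, 172.4 and 247.3, replicate 3 being the highest in both. In WT the sums were 229.6, 243.6 and 255.9 in control and 184.9, 227.9 and 194.5 after TGF-β2. The numbers of Hox genes called in the main fits with KO libraries are given with and without replicate 3. So are the numbers of genotype estimates above 0 or with an unadjusted p under 0.05. Other counts, such as those with the block, with the count filter, of shared signs or of groups without overlap, include replicate 3.

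To ask which Hox genes respond to TGF-β2, the stimulated and control libraries of WT were compared (edgeR quasi-likelihood test over all 10743 genes with a mean of 1 RPKM in either group, Benjamini-Hochberg adjusted p under 0.05). Of 24 Hox genes tested, 8 passed (33.3%), against 22.6% of all genes tested. The 2 that rose compare with 10.4% of all genes and the 6 that fell with 12.2%. Of the 8, Hoxc12, Hoxd4 and Hoxd8 changed by at least 2-fold, against 7.72% of all genes. Hoxc12 and Hoxd4 reached 1 RPKM in the control group only and Hoxa4 in the TGF-β2 group only, so that the limit itself favoured a difference in these 3. The groups of 13 tested Hox genes did not overlap, against 45.2% of all genes. With a limit of 10 counts in 3 libraries, which does not look at the groups, 9 of 31 Hox genes passed. The share of all genes under that limit is not given here, so that this count cannot be set against it.

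**Figure D3:**
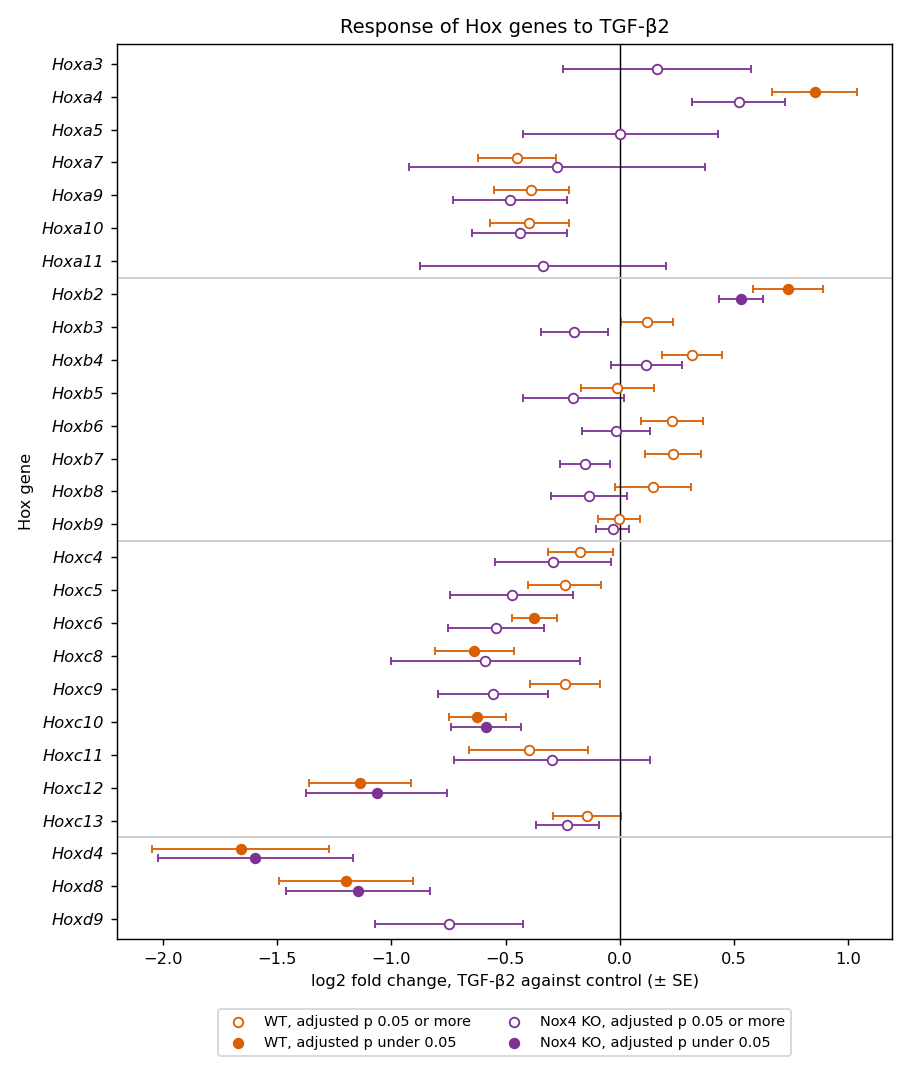
Log2 fold change of TGF-β2 against control (x axis, bars are ± SE, 3 libraries a group) for Hox genes tested in WT (orange) and Nox4 KO (purple), filled where the adjusted p was under 0.05. Filled points lie right of 0 for Hoxb2 in both genotypes and Hoxa4 in WT, and all 9 Hoxc genes lie left of 0 in both.

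The increases were those of Hoxb2 and Hoxa4. Hoxb2, which patterns the hindbrain in the embryo, was read at 8.57, 8.83 and 7.31 RPKM in WT control and at 12.0, 16.1 and 12.1 after TGF-β2. All stimulated libraries lay above all controls, and the log2 fold change was 0.74 (SE 0.15, adjusted p = 0.0161). This was the only Hox gene whose call held with each of the 6 WT libraries left out in turn (adjusted p 0.0186 to 0.0492). Reads of Hoxb2 may include its antisense partner, as above.

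Hoxa4, a gene of the neck and upper trunk, was read at 0.822, 0.872 and 0.700 RPKM in WT control and at 1.37, 1.41 and 1.43 after TGF-β2. The groups did not overlap, and the change was 0.85 (SE 0.19, adjusted p = 0.0199), with adjusted p up to 0.0765 when 1 library was left out.

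Of the central genes, Hoxc6 was read at 34.9, 38.4 and 40.0 RPKM in WT control against 26.4, 31.8 and 26.9 after TGF-β2. Hoxc8, which specifies thoracic segments and their motor neurons, was read at 51.7, 66.6 and 69.7 against 29.8, 46.0 and 42.0. Neither gene overlapped between the groups, and the decreases were −0.37 (SE 0.097, adjusted p = 0.0354) and −0.64 (SE 0.17, adjusted p = 0.0417) on the log2 scale. Both calls were near the limit: leaving out 1 library gave adjusted p up to 0.121 for Hoxc6 and 0.129 for Hoxc8, and Hoxc6 missed the limit under the count filter (adjusted p = 0.0542).

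Hoxd4 and Hoxd8, which are next to each other in the Hoxd cluster, showed the largest decreases of the tested Hox genes. Hoxd4 was read at 0.912, 1.02 and 1.80 RPKM in WT control and 0.240, 0.342 and 0.567 after TGF-β2, from 25 to 54 reads in the stimulated libraries. The change was −1.66 (SE 0.39, adjusted p = 0.0250), with no overlap. Hoxd8 was read at 2.88, 2.91 and 4.73 RPKM against 0.957, 1.85 and 1.64, again without overlap (−1.20, SE 0.29, adjusted p = 0.0288). Hoxd3, the next gene on the anterior side, was below the 1 RPKM limit, and with the count filter its change was −2.27 (SE 0.52, adjusted p = 0.0232) from 24, 41 and 70 reads to 4, 8 and 14. Because Gm28230 overlaps Hoxd3 and Hoxd4, reads of those genes may in part be its own.

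The 250 bases before the starts of Hoxd8 (chr2:74704365-74704614, plus strand) and Hoxd4 (chr2:74721728-74721977, plus), from RefSeq on GRCm38.p6, are shown because these genes fell together. Capitals mark CCAAT, searched on both strands.
Hoxd8: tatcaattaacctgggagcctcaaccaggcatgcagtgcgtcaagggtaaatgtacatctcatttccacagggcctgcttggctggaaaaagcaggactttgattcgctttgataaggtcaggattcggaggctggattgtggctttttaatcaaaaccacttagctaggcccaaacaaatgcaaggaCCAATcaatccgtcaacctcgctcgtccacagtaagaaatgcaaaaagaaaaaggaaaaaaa
Hoxd4: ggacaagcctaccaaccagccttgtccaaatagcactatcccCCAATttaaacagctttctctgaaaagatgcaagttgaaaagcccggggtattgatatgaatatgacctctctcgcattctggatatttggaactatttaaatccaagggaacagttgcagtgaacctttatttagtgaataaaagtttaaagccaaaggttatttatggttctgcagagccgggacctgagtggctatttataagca
Each held 1 CCAAT and neither held CAGAC, the letters of a Smad-binding element, nor TGATNNAT, a Pbx-Hox type motif. The Hoxd4 window also held 1 TATAAA. RefSeq windows were found for 22 of the 39 Hox genes, 24 windows in all. Of all 32851 windows of this length, 33.8% held CCAAT, 42.2% CAGAC, 7.68% TGATNNAT and 12.4% TATAAA; of the 24 Hox windows 14, 7, 4 and 4 did. These matches describe the letters only.

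Of the posterior genes, Hoxc10, used in the lumbar region and hindlimb, was read at 15.5, 12.9 and 15.4 RPKM in WT control and 9.14, 10.4 and 8.13 after TGF-β2. Hoxc12, which like Hoxc13 lies at the posterior end of its cluster, was read at 2.35, 2.11 and 1.73 against 1.02, 0.849 and 0.860. The groups of both genes were apart, and the changes were −0.62 (SE 0.12, adjusted p = 0.0145) and −1.14 (SE 0.22, adjusted p = 0.0139). Hoxc13 did not pass (−0.14, SE 0.15, adjusted p = 0.524), nor did Hoxa9 (−0.39, SE 0.17, adjusted p = 0.139) or Hoxa10 (−0.40, SE 0.17, adjusted p = 0.145).

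**Figure D4:**
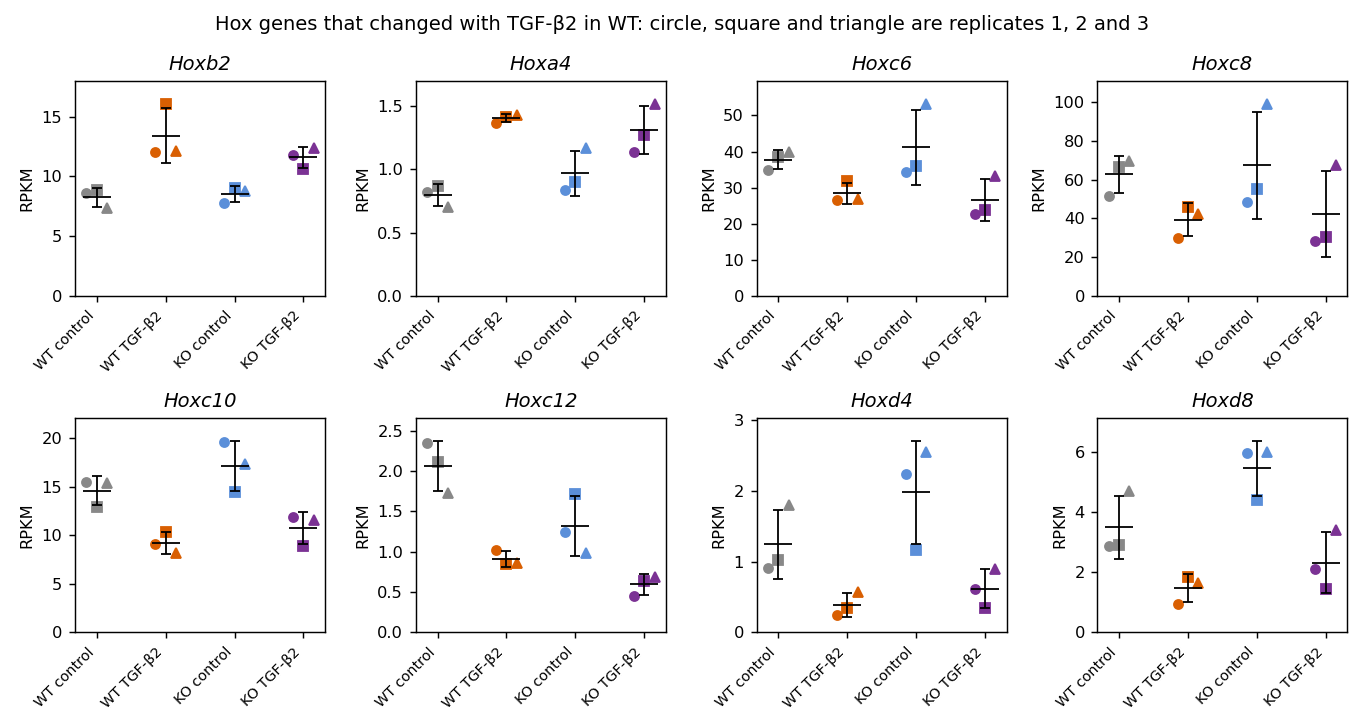
RPKM of the 8 Hox genes that passed the test in WT, by group (x axis), with 1 point per library and mean ± SD as black bars (n = 3). Hoxb2 and Hoxa4 sit higher in WT TGF-β2 than in WT control and the other 6 lower, and the KO replicate 3 triangle is the highest point of both KO groups for Hoxc6, Hoxc8 and Hoxd4.

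By cluster, the direction of the estimates differed. All 9 Hoxc genes had log2 fold changes below 0 in WT, from −0.14 to −1.14 with a median of −0.37, beside a median of −0.0027 over all genes tested. In Hoxb 6 of 8 estimates were above 0 (median 0.19), and only Hoxb2 passed. In Hoxa 2 of 5 were above 0, Hoxa4 among them, and Hoxa7, Hoxa9 and Hoxa10 were below. These counts were the same with relative log expression (RLE) size factors and with library size alone. The summed Hoxc level was 131 to 153 RPKM in control and 87.1 to 116 after TGF-β2, and that of Hoxd 4.35 to 7.70 and 1.52 to 2.89, both without overlap. The Hoxb sums, 75.6 to 76.9 and 76.4 to 94.0, overlapped. The share of Hoxc in all Hox RPKM was 57.1% to 61.1% and 47.1% to 51.1%.

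The WT count depended on single libraries. Of the Hox genes, 3 passed without control replicate 1, 2 without control replicate 2, 2 without control replicate 3 and 3 without TGF-β2 replicate 1. Without TGF-β2 replicates 2 and 3, 8 and 6 passed. The shares of all genes in these fits are not given here, so that the changes are not read as particular to the Hox genes.

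The same question was asked of Nox4 KO fibroblasts. There 5 of 28 Hox genes passed (17.9%), against 30% of the 10809 genes tested. Hoxb2 rose, as did 15.1% of all genes, and Hoxc10, Hoxc12, Hoxd4 and Hoxd8 fell, as did 14.9%. Hoxc12, Hoxd4 and Hoxd8 changed by at least 2-fold, against 6.8% of all genes. Hoxc12, Hoxd4 and Hoxd9 reached 1 RPKM in the control group only and Hoxa4 in the TGF-β2 group only. The groups of 7 tested Hox genes did not overlap, against 48.5% of all genes. With the count filter 5 of 31 passed, where Hoxd3 was called and Hoxc12 was not (adjusted p = 0.0522). The share of all genes under that filter is again not given here.

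Hoxb2 was read at 7.77, 9.04 and 8.75 RPKM in KO control and 11.8, 10.6 and 12.4 after TGF-β2 (0.53, SE 0.097, adjusted p = 0.0121). The groups were apart, and the call held with each of the 6 KO libraries left out in turn (adjusted p 0.0244 to 0.0442). Hoxc10 was read at 19.6, 14.4 and 17.4 against 11.9, 8.87 and 11.5 RPKM (−0.58, SE 0.15, adjusted p = 0.0344), and Hoxc12 at 1.24, 1.72 and 0.987 against 0.452, 0.642 and 0.690 (−1.06, SE 0.31, adjusted p = 0.0455). Neither overlapped.

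Hoxd4 was read at 2.24, 1.16 and 2.55 RPKM in KO control and 0.619, 0.339 and 0.889 after TGF-β2 (−1.60, SE 0.43, adjusted p = 0.0365). Hoxd8 was read at 5.98, 4.41 and 6.02 against 2.12, 1.44 and 3.43 RPKM (−1.15, SE 0.32, adjusted p = 0.0395). Both genes were apart between the groups, and for both KO replicate 2 was the lowest library in control and in TGF-β2. Hoxd3 again passed only with the count filter (−1.71, SE 0.38, adjusted p = 0.0218).

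In KO, Hoxc6 and Hoxc8 were read at 34.2, 36.0 and 53.2 and at 48.2, 55.0 and 99.0 RPKM in KO control, against 22.8, 23.7 and 33.2 and 28.3, 30.5 and 67.6 after TGF-β2. The decreases within each replicate number were of one direction, but the libraries of replicate 3 lay above the rest (the groups overlapped for Hoxc8 and not for Hoxc6) and neither gene passed (−0.54, SE 0.21, adjusted p = 0.0987, and −0.59, SE 0.42, adjusted p = 0.318). Hoxa4, at 0.836, 0.902 and 1.17 against 1.14, 1.27 and 1.52 RPKM, did not pass either (0.52, SE 0.20, adjusted p = 0.102).

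In KO the same replicate number deviated together in control and TGF-β2, with correlations of the deviations of 0.685 to 0.771 over all genes, so that the numbers pair the libraries. With the replicate number as a block, 15 of 28 Hox genes passed (53.6%), against 54% of all genes tested. Hoxb2 (0.53, adjusted p = 0.00663) and Hoxa4 (0.52, adjusted p = 0.0274) were among the 3 that rose. The 12 that fell were Hoxa9, Hoxa10, Hoxc4, Hoxc5, Hoxc6, Hoxc8, Hoxc9, Hoxc10, Hoxc12, Hoxd4, Hoxd8 and Hoxd9. Hoxc6 fell by 0.54 on the log2 scale (adjusted p = 0.000667), Hoxc8 by 0.63 (adjusted p = 0.00172), Hoxd4 by 1.61 (adjusted p = 0.000725) and Hoxd9 by 0.74 (adjusted p = 0.0308). The share of Hox genes was near that of all genes in this fit. In WT the correlations over all genes were 0.0731 to 0.532, and those over 28 Hox genes 0.486 to 0.762, and the block gave 9 of 24 Hox genes (37.5%), against 28.7% of all genes.

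Without KO replicate 3 in either group, 10 of 26 Hox genes passed, among them Hoxc6 and Hoxc8, beside 4244 of all 10790 genes. Leaving out 1 library gave 1 Hox gene without control replicate 1, 3 without control replicate 2 and 2 without control replicate 3. It gave 1 without TGF-β2 replicate 1, 1 without TGF-β2 replicate 2 and 9 without TGF-β2 replicate 3. For these 1-library fits the shares of all genes are not given here, so that the changes are not read as particular to the Hox genes.

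All 9 Hoxc estimates in KO were again below 0 (median −0.54, beside −0.014 over all genes), under each of the 3 scalings. In Hoxb 2 of 8 were above 0 (median −0.082). The Hoxc sums were 127 to 201 RPKM in control and 81.2 to 136 after TGF-β2 and overlapped through replicate 3. Hoxd sums were 6.68 to 10.7 and 2.50 to 5.32 and did not.

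The WT and KO comparisons share no library. Of the 24 Hox genes tested in both, 20 had the same sign (83.3%, beside 78.4% of all genes). The 5 genes called in KO were 100% of the KO list and 62.5% of the WT list, and over all genes these shares were 53.9% and 71.8%. These shares rest on the fits without the block, in which Hoxa4, Hoxc6 and Hoxc8 were called in WT and not in KO. With the block all 3 were called in KO too, as given above.

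The interaction of genotype and TGF-β2, fitted on all 12 libraries, tests whether a response differs between genotypes. None of 28 Hox genes passed (0% of all 10890 genes did in edgeR; 292 of all genes, or 2.68%, had an unadjusted p under 0.05, and DESeq2 called 6 genes, none of them a Hox gene). The smallest p was that of Hoxb7, a central gene, read at 7.50, 7.60 and 7.55 RPKM in WT control, 8.23, 9.77 and 7.95 in WT TGF-β2, 7.99, 9.23 and 9.89 in KO control and 7.11, 7.75 and 8.10 in KO TGF-β2. Its mean was higher after TGF-β2 in WT and lower in KO, with overlap in KO (interaction −0.37, SE 0.15, adjusted p = 0.854 in edgeR). For Hoxa4, Hoxc6 and Hoxc8 the interaction was −0.32 (SE 0.27), −0.15 (SE 0.24) and 0.065 (SE 0.49), and for Hoxd4 and Hoxd8 0.079 (SE 0.61) and 0.072 (SE 0.46), so that differences of the size of these errors were not detectable.

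The comparison of Nox4 KO with WT asks whether loss of Nox4 moved the Hox genes. In control cells, 0 of 27 Hox genes and 0% of all 10767 genes passed in edgeR, while 6 Hox genes and 597 of all genes (5.54%) had an unadjusted p under 0.05 and DESeq2 called 28 genes, none of them a Hox gene. Of the 27 estimates 22 were above 0 (81.5%, beside 50.6% of all genes), and without KO control replicate 3 the number was 13 of 25 (52%, beside 48.6%), again with 0 called. Without that library, 1 of 25 Hox genes had an unadjusted p under 0.05 in edgeR. The groups did not overlap for 5 Hox genes, against 13.6% of all genes.

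Hoxa11, a gene of the forearm, lower leg and uterus, was read at 0.585, 0.195 and 0.488 RPKM in WT control and 1.86, 0.713 and 1.84 in KO control. The KO libraries lay above the WT libraries (1.75, SE 0.51, adjusted p = 0.828, edgeR), and replicate 2 was the lowest in both groups. Hoxd9 was read at 0.360, 0.589 and 0.673 against 1.08, 0.707 and 1.40 (0.93, SE 0.33, adjusted p = 0.828, edgeR), also without overlap. Hoxc13 went the other way, at 9.05, 9.82 and 7.81 against 6.54, 7.85 and 6.02, overlapping by a small margin (−0.43, SE 0.15, adjusted p = 0.828, edgeR). Without KO control replicate 3 the values were 1.58 for Hoxa11 (SE 0.57) and −0.33 for Hoxc13 (SE 0.15), and Hoxd9 was below the limit for testing. Hoxa11 and Hoxd9 reached 1 RPKM in KO only, and an antisense gene covers 35.0% of the exon bases of Hoxa11.

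After TGF-β2, 0 of 25 Hox genes and 0% of all 10439 genes passed in edgeR. An unadjusted p under 0.05 was found for 2 Hox genes and 337 of all genes (3.23%), and DESeq2 called 16 genes, none of them a Hox gene. Without KO TGF-β2 replicate 3, 3 of 23 Hox genes had an unadjusted p under 0.05 in edgeR. Hoxc13 was read at 7.11, 9.33 and 7.17 RPKM in WT and 5.84, 5.64 and 4.93 in KO, without overlap (−0.50, SE 0.14, adjusted p = 0.838, edgeR); 10.1% of all genes did not overlap. Hoxa11 was read at 0.461, 0.301 and 0.446 against 1.37, 0.449 and 1.47, overlapping through KO replicate 2 (1.45, SE 0.47, adjusted p = 0.838, edgeR). The next was Hoxd8, at 0.957, 1.85 and 1.64 against 2.12, 1.44 and 3.43 (0.68, SE 0.37, adjusted p = 0.838, edgeR). Estimates above 0 numbered 13 of 25, and 6 of 23 without KO TGF-β2 replicate 3, where 0 were called, Hoxc13 was at −0.42 (SE 0.14), Hoxd8 at 0.30 (SE 0.32) and Hoxa11 was below the limit for testing.

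**Figure D5:**
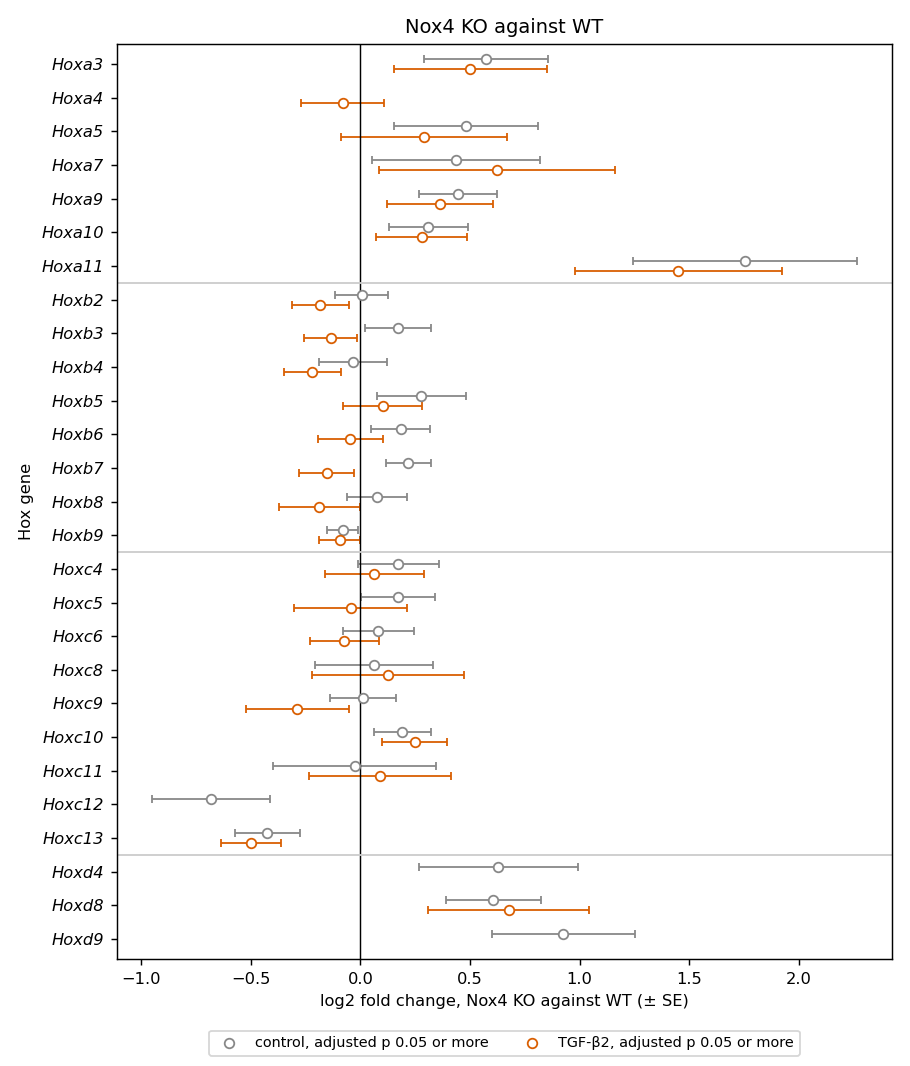
Log2 fold change of Nox4 KO against WT (x axis, bars are ± SE, 3 libraries a group) for Hox genes tested in control (grey) and after TGF-β2 (orange). All points are open, since no adjusted p was under 0.05; Hoxa11 lies farthest right (1.75 and 1.45) and Hoxc13 left of 0 in both.

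Hox proteins bind DNA together with TALE homeodomain cofactors of the Pbx, Meis and Pknox families. Of 8 TALE genes tested, 2 fell in WT and 2 in KO, and none rose, where 12.2% and 14.9% of all genes fell. Meis2 fell in WT (−0.60, adjusted p = 0.0203) and Pbx2 in KO (−0.33, adjusted p = 0.0249). The TALE median was −0.13 in WT and −0.20 in KO. With 1 library left out, 1 to 3 TALE genes were called in WT and 1 to 3 in KO.

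The Trithorax group, here 8 genes of the complexes that set active chromatin marks, had 1 gene that rose in WT and 2 in KO, and none that fell, where 10.4% and 15.1% of all genes rose. Wdr5, a core subunit, rose in both (0.43, adjusted p = 0.0128, and 0.30, adjusted p = 0.0329), and Kdm6b, a demethylase that removes the Polycomb mark, in KO (0.28, adjusted p = 0.0249). In KO neither call held with library size alone, where the median of all genes was −0.10.

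Of 19 Polycomb-group genes tested, 2 fell in WT and 5 in KO, and none rose, where 12.2% and 14.9% of all genes fell. Cbx6, a reader of the Polycomb mark, was at 19.0 ± 3.08 and 8.33 ± 0.338 RPKM in WT (SD, n = 3) and 22.1 ± 3.36 and 9.50 ± 0.801 in KO (−1.14, adjusted p = 0.00144, and −1.13, adjusted p = 0.00384, edgeR). Phc1 fell in WT (−0.38, adjusted p = 0.0237). Cbx2 and Phf19, an accessory factor of the methyltransferase complex, fell in KO (−0.70, adjusted p = 0.0385, and −1.77, adjusted p = 0.0262), as did Phf1. Cbx6 was called in both genotypes with any 1 library left out. Wdr5 was not called in WT without control replicate 1 or TGF-β2 replicate 1, and the KO counts of the Trithorax-group and Polycomb-group genes fell to as few as 0 and 1 with 1 library left out. With the replicate block 4 TALE, 4 Trithorax-group and 9 Polycomb-group genes passed in KO, where 54% of all genes did, and 5 Polycomb-group genes in WT, where 28.7% did. Without KO replicate 3 in either group 4 TALE genes were called lower, 3 Trithorax-group genes higher, and 3 Polycomb-group genes higher and 4 lower.

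Cdx and Gbx genes, which act before or beside the Hox genes in the embryo, and Evx and Mnx genes, which are related homeobox genes, all stayed under 1 RPKM in every library. None of the 7 was tested. Gbx2 reached 0.771 RPKM at most, and Cdx2, Evx1, Evx2 and Mnx1 had no read.

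The genes next to the clusters were also read. Of the 3 nearest genes of the table on each side of each cluster, 24 in all, 17 were tested. In WT 1 rose and 3 fell and in KO 3 rose and 2 fell, where 22.6% and 30% of all genes passed, and without KO replicate 3 in either group 2 rose and 3 fell. Snx11, a sorting nexin gene beside Hoxb, rose in both genotypes (0.64, adjusted p = 0.0043, and 0.50, adjusted p = 0.00496), and Calcoco1, beside Hoxc, fell in both (−0.66, adjusted p = 0.00667, and −0.70, adjusted p = 0.00933). Snx10, beside Hoxa, fell in both (−0.55, adjusted p = 0.0204, and −0.43, adjusted p = 0.0103). Nfe2l2, the gene of the antioxidant regulator Nrf2, fell in WT (−0.60, adjusted p = 0.00718). Hnrnpa1 and Lnpk rose in KO. Snx11 and Calcoco1 were called in both genotypes with any 1 library left out, and with the replicate block 9 of the 17 passed in KO, where 54% of all genes did. No member of these lists passed in either comparison of genotypes, where 0% of all genes did.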

How the data were processed

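RNA was measured in 12 libraries of cultured mouse skin fibroblasts. Per the study's methods and the submitters' processing notes, single-end 50-base reads (CASAVA 1.8.2) were aligned to GRCm38 with STAR 2.4, reads with several locations were discarded, and reads on exons of protein-coding isoforms were counted with featureCounts 1.4.6. The authors deposited raw counts per gene as whole numbers, not normalized. The counts were used as deposited. RPKM was computed from the count, the merged exon length of protein-coding transcripts (GENCODE M21) and the library total.

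Tests were edgeR 4.0.16 quasi-likelihood fits (R 4.3.3, TMM scaling) on the 6 libraries of each comparison and on all 12 for the interaction, for genes with a mean of 1 RPKM in at least 1 of the groups compared, with Benjamini-Hochberg adjustment over all genes tested and calls at an adjusted p under 0.05. Fits were tested on simulated data. Alternatives were DESeq2 1.42.0, other scalings and filters, a replicate block, all libraries in one fit, and libraries left out. Leaving out the same replicate number in all groups compared was added after seeing the data.

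The members and lists were chosen with earlier results of these data known. Every Hox gene is counted; full values are given for those called, for the 3 smallest p-values of each genotype comparison and for the highest gene of each cluster in WT control; Hoxa9, Hoxa10, Hoxa13, Hoxb7, Hoxd3 and the uncalled genes of the other genotype were named after their values were seen. Of list members that passed, at most 3 a direction were given with values. Some genes and sequences are not reported here by name.

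Replicate numbers were checked by correlating the deviations of same-numbered libraries from their group means over 10890 genes. The coefficients were 0.685 to 0.771 between control and TGF-β2 in KO, where every pair was over 0.1 and the numbers were taken as pairs, 0.0731 to 0.532 in WT and −0.179 to 0.289 between genotypes, where they were not. The pairing comes from the data, since the labels give only a number. No libraries of a group agreed within sampling noise (chi-square per gene 15.1 to 154). Homeoboxes were found by translating GENCODE M21 transcripts, and promoter windows came from RefSeq (GRCm38.p6).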

Additional observations from a re-analysis of the deposited data

How the results depend on the processing

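In WT, 8 Hox genes passed for TGF-β2, and 9 with DESeq2, 8 with RLE scaling or library size alone, 9 with the count filter, 8 with no filter, 9 with the replicate block and 6 in one fit of all 12 libraries. In Nox4 KO 5 passed, and 6 with DESeq2, 5 with each other scaling or filter, 6 in one fit of all libraries and 15 with the replicate block, which the pairing of the KO libraries calls for. Of these settings, the shares of all genes are given above only for the main fits and the block. With 1 library left out the counts were 2 to 8 in WT and 1 to 9 in KO. With the same replicate number left out in both groups they were 0, 4 and 1 in WT (numbers 1, 2 and 3; 7, 13 and 6 Hox genes had an unadjusted p under 0.05) and 0, 0 and 10 in KO (2, 4 and 12 with an unadjusted p under 0.05). These fits have 2 libraries a group. A library left out leaves fewer samples, which the alternative itself brings about; other causes were not tested. The block changed no call of a Hox gene between genotypes or in the interaction, where every setting gave 0; their same-numbered libraries share only a number. Hox genes with a mean of 1 RPKM numbered 28, and 26 to 29 with a replicate number left out, 27 with the exons of all transcripts and 28 with TMM-scaled totals. Over the named genes, 281 of 359 alternative values kept direction and side of the limit, 78 kept direction but missed the limit, and 0 changed sign. Low counts limit Hoxa13, Hoxb13, Hoxd1, Hoxd10, Hoxd11 and Hoxd13, which no setting could test well.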

Other observations

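Beyond the Hox genes, 7 regulators of limb and trunk position were read as a list (Pitx1, Tbx2, Tbx3, Tbx4, Tbx5, Tbx15 and En1), chosen with results of these data known. Tbx5, a forelimb and heart T-box gene, was at 5.38 ± 0.922 RPKM in WT control and 2.06 ± 0.160 after TGF-β2 (SD, n = 3), and at 5.27 ± 0.974 and 2.19 ± 0.501 in KO. It fell in both genotypes (−1.34, adjusted p = 0.00157, and −1.18, adjusted p = 0.0104, edgeR). En1, a homeobox gene of the ventral limb ectoderm and of a lineage of dermal fibroblasts, also fell in both (−0.53, adjusted p = 0.0460, and −0.80, adjusted p = 0.0412). Tbx15, a T-box gene of dorsal and trunk mesenchyme, was at 34.7 ± 2.26 and 25.6 ± 1.35 RPKM in WT (SD, n = 3; −0.40, adjusted p = 0.0290, edgeR) and was not called in KO (−0.28, adjusted p = 0.360). Of the 7, 4 were tested in WT and 5 in KO, and none of those rose. In WT 3 of the 4 fell and in KO 2 of the 5, where 12.2% and 14.9% of all genes fell.

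Pitx1, a hindlimb homeobox gene, was read at 0.197 to 0.551 RPKM in WT control and 0.974 to 1.49 in KO control. The groups did not overlap, as for 13.6% of all genes, and the difference was not called (1.97, SE 0.41, adjusted p = 0.828, edgeR). Pitx1 reached a mean of 1 RPKM in KO only, so that the limit itself favoured a difference.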
